A study of Mus musculus with 12 samples.

Results

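The mutB1 line, derived from the mouse mammary carcinoma cells 4T1, was compared with the control line of the same cells, with 3 arrays per line. The mutB1 line carries a Mkl1 construct labelled mutB1, taken to mean a mutated B1 region. Of the 34760 probe sets on the array, 30212 had a mean log2 expression value of at least 4 over the series and formed the comparison, and 6 of the 12 arrays of the series belong to it. At the edge of that limit, an unnamed probe set (10340133) lay just inside with a mean of 4.00 and a difference of 0.40, and Ighg3 lay just outside with a mean of 4.00 and a difference of 0.11 between mutB1 and control. The other 6 arrays came from lines named FL and ΔSAP for further Mkl1 constructs, and they entered the fit and the direct comparisons with mutB1. The name FL is taken to stand for full-length Mkl1. All 4 lines have the BALB/cfC3H background and were kept for 48 h in DMEM with 0.03% fetal calf serum before total RNA was taken, and 100 ng of RNA per sample was amplified. The labels name 1 stable line per construct, so an effect of a construct and a difference between lines cannot be told apart. The series text calls the samples triplicates and does not say more. The p-values and SE thus rest on the spread between the 3 samples within lines, pooled over the 4 lines, and that spread may be technical.

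Mkl1, now named Mrtfa, is a coactivator that binds monomeric actin and, once released, works with the transcription factor Srf at cytoskeletal and contractile genes. The basic region B1 is known for contacts with Srf, and the SAP domain of Mkl1 is of a type found in DNA-binding proteins. Srf binds a sequence called the CArG box, whereas genes induced by interferon often carry an interferon-stimulated response element (ISRE). In epithelial cells, cadherins, desmosomal proteins and claudins hold neighbouring cells together, and keratins form the intermediate filaments that desmosomes anchor.

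Stretches of 4 promoters of interferon response genes that rose in the mutB1 line are printed with a promoter of an actin-linker gene that holds a CArG box, to show the motif letters behind the gene lists. They come from RefSeq on GRCm38.p6, run 5′ to 3′ in the direction of the gene, and end before the gene start. Capitals mark the ISRE (GAAANNGAAA, either strand) in Ifit3, Rsad2, Oas3 and Gbp3, and the CArG box in Vcl. Each promoter was chosen for holding its motif, and list members without a found match, such as Ifi44l and Mx1, were passed over.
Ifit3 promoter, chr19:34583333-34583456, plus strand: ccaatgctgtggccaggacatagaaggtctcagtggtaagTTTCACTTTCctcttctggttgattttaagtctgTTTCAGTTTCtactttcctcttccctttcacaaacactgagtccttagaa
Rsad2 promoter, chr12:26456523-26456612, minus strand: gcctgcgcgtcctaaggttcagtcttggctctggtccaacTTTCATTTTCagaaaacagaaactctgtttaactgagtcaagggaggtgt
Oas3 promoter, chr5:120777685-120777774, minus strand: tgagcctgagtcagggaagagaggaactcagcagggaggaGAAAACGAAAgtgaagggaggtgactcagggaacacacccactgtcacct
Gbp3 promoter, chr3:142559959-142560043, plus strand: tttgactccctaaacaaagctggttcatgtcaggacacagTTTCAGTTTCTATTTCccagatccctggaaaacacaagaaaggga
Vcl promoter, chr14:20929148-20929220, plus strand: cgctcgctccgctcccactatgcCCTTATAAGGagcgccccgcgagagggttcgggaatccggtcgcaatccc
The ISREs of Ifit3 started 122 and 156 bases before the gene start, that of Rsad2 120 bases and that of Oas3 75 bases before it, and the 2 in Gbp3 overlap each other. In windows of 300 bases around the gene start, the ISRE letters were found for 12 of the 21 interferon list members with a promoter entry (57.1%), against 3.99% of all 27025 genes with a promoter entry. The CArG box was found for 11 of 34 members of the Srf and Mrtf target list (32.4%), against 1.81% of all such genes, and for 0 of the 21 interferon and 0 of 19 epithelial members. A match describes letters in a window and is neither a site nor a cause.

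The transcript of the construct's own gene was measured first. Mrtfa (probe set 10430693) stood at 11.41, 11.23 and 11.22 on the log2 scale in the mutB1 arrays, 12.06, 12.14 and 12.03 in the FL arrays, 11.94, 11.87 and 11.95 in the ΔSAP arrays and 9.28, 9.28 and 9.26 in the control arrays. No ranges overlapped, the FL and ΔSAP arrays lay close together, and the control arrays lay far below the rest. The difference of mutB1 from control was 2.01 ± 0.06 (SE, n = 3 each, limma adjusted p = 3.1e-09), a fold of 4.04. The mutB1 line held less Mrtfa RNA than FL, by -0.79, and less than ΔSAP, by -0.63 (limma adjusted p = 2.8e-06 and 1.7e-05). The probe set does not separate construct from endogenous transcript, and its position relative to the mutated region was not analysed here.

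Srf, Mrtfb and Tnc, a gene studied with Mkl1 in mammary cells, had small differences from control. Srf averaged 9.85 ± 0.04 in mutB1 and 9.97 ± 0.04 in control (SD, n = 3 each), a difference of -0.12 with limma adjusted p = 0.18. Mrtfb, the paralog of Mrtfa, differed by -0.18 (limma adjusted p = 0.013, and 0.0036 with limma-trend or 0.0031 after a further quantile normalization, where it passed). Tnc, the matrix glycoprotein tenascin-C, read 6.23, 6.32 and 6.33 in mutB1, 7.54, 7.81 and 7.93 in FL, 7.47, 7.82 and 7.81 in ΔSAP and 5.83, 5.72 and 5.94 in control. Its difference of 0.46 from control missed the threshold (limma adjusted p = 0.018) but passed with only the 6 arrays (0.0087), with the replicate block (0.0067) or without ΔSAP replicate 1 (0.0081). Its means in mutB1 and in control were low. It lay below FL by -1.47 (limma adjusted p = 6.8e-06) and below ΔSAP by -1.40 (limma adjusted p = 1.1e-05).

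Arrays of the mutB1 line correlated with each other at r = 0.9958 to 0.9962 across probe sets, control arrays at 0.9944 to 0.9959, and mutB1 with control arrays at 0.9865 to 0.9894. On the first principal component, with 36.5% of the variance, the mutB1 and control arrays lay on the same side, opposite the FL and ΔSAP arrays. The second, with 23.5% of the variance, had the mutB1 arrays at its negative end and the control arrays at its positive end. A probe set was called at a Benjamini-Hochberg adjusted p of at most 0.01 from limma (adjusted over the whole array) with a change of 2-fold or more. By this rule 419 probe sets (1.39%) were called, 249 higher (0.824%) and 170 lower (0.563%) in mutB1. Among 18259 genes, each taken by its probe set with the highest mean, 185 were called higher and 155 lower. Of the called probe sets, 43 had no symbol and 31 had several. With no minimum fold 14.5% of probe sets passed, 6.65% higher and 7.89% lower. At 4-fold or more, 86 probe sets were higher and 28 lower. No array had a median below 6.35, and a line's mean under that value is called low, since such signal may be background. Of the calls, 72 of those higher had a low control mean and 35 of those lower a low mutB1 mean. True differences of these genes may exceed the measured ones.

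**Figure D1:**
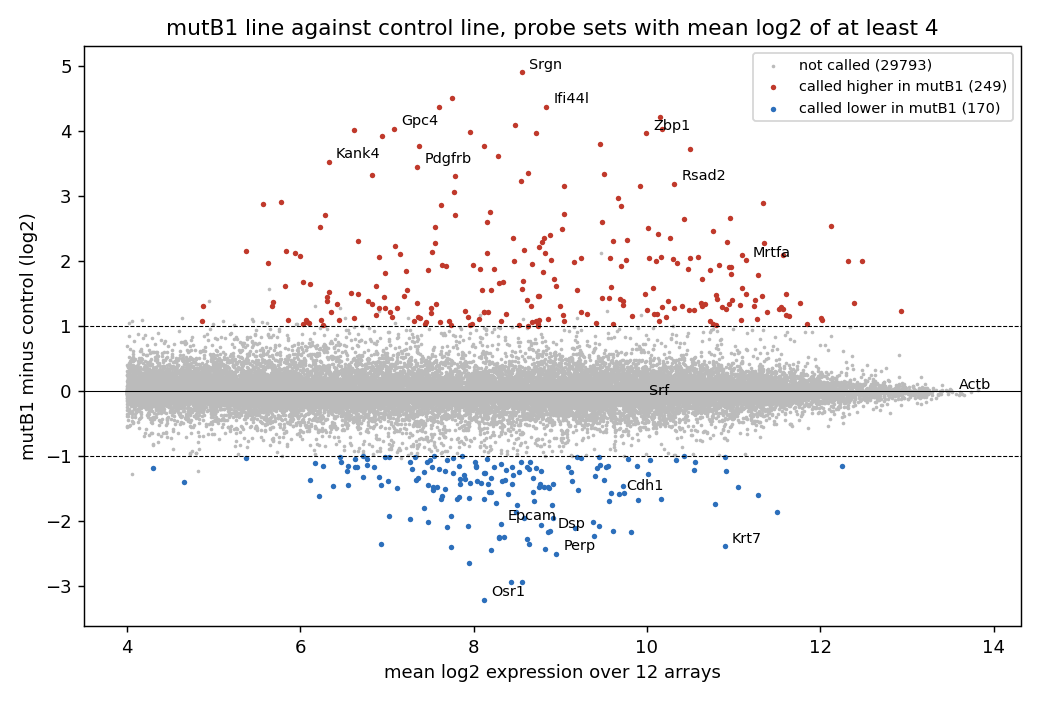
Difference of mutB1 minus control (log2, vertical) against the mean log2 value over 12 arrays (horizontal), 1 point per probe set, with red for the 249 called higher, blue for the 170 called lower, and dashed lines at 2-fold. The calls higher reach 29.9-fold at Srgn and the calls lower 9.23-fold at Osr1, and Srf and Actb lie near 0.

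The 15 highest rises included Srgn, Gpc4, Kank4, Pdgfrb and genes known to be induced by interferon. Srgn (probe set 10369615), which encodes serglycin, the core protein of secretory granule proteoglycans, read 12.23, 12.08 and 12.11 in mutB1 and 7.26, 7.23 and 7.23 in control. The groups were far apart, and the difference was 4.90 ± 0.09 (SE, limma adjusted p = 3.8e-10). Among interferon-inducible genes outside the fixed list, Iigp1, a GTPase that acts on vacuoles of intracellular parasites, differed by 4.37 and Zbp1, a sensor of Z-form nucleic acids, by 3.96. Gm8995, BC023105 and Gm4951 differed by 4.04, 4.01 and 3.93, and Ifit3b by 3.77, though Ifit3b is near-identical to Ifit3 and the probes may not separate them. Iigp1, BC023105, Gm4951 and Ifit3b had low control means.

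All 26 measured members of the interferon response list rose in the mutB1 line, 23 of them by at least 2-fold, with a median difference of 2.04 and a range of 0.64 to 4.37. Of the 30 genes listed, 26 had a probe set of their own and all 26 passed the limit on the mean. Here and for the other lists, counts cover members with a probe set of their own and a mean of at least 4, and further members were not analysed here. Over all genes, 20.4% passed the adjusted p with no minimum fold (9.05% higher and 11.4% lower), and the median difference was -0.01. At 2-fold, 1.01% of all genes were higher. Members of this list made up 23 of the 185 genes called higher (12.4%).

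The antiviral effectors stood at the top of the list. Ifi44l (probe set 10502801), an interferon-induced gene with antiviral activity, read 10.14, 10.20 and 9.87 in mutB1 and 5.96, 5.66 and 5.48 in control, a difference of 4.37 ± 0.12 (SE, limma adjusted p = 2.7e-09). Mx1, a dynamin-like GTPase, read 8.89, 8.76 and 8.50 in mutB1 and 5.01, 5.07 and 4.79 in control, and its relative Mx2 read 9.38, 9.24 and 9.08 in mutB1 and 5.44, 6.12 and 5.31 in control. Neither gene's groups overlapped, but control replicate 2 stood above the other control arrays for Mx2, and the control means of Ifi44l, Mx1 and Mx2 were low. Ifit3, an RNA-binding restriction factor whose promoter is printed above, read 11.54, 11.47 and 11.36 in mutB1 and 7.72, 7.90 and 7.61 in control, a fold of 13.1. Oas2, which makes the oligoadenylates that activate RNase L, differed by 3.34 ± 0.08 (SE, limma adjusted p = 1.1e-09), Oas3, with the same activity, by 3.16 and Rsad2, the radical SAM enzyme viperin, by 3.19. Gbp3, a guanylate-binding protein, differed by 2.85.

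Sensors, signal carriers and feedback genes rose by less, and together with Oas3, Rsad2 and Gbp3 they were singled out after their values were seen. Irf7, the factor that amplifies type I interferon production, read 12.21, 12.12 and 12.03 in mutB1 and 9.96, 10.09 and 10.04 in control, a difference of 2.09. The RNA sensor genes Ifih1 and Ddx58 differed by 1.97 and 1.03. Stat2 and Irf9, transcription factors of the interferon response, differed by 1.50 and 0.64, and the value for Irf9 was the smallest of the list. Usp18, a protease that removes Isg15 and restrains the receptor, differed by 2.53. Cxcl10, a chemokine that attracts T cells, read 12.10, 11.99 and 11.93 in mutB1 and 9.79, 10.07 and 9.35 in control, with no overlap and a wider spread in control.

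**Figure D2:**
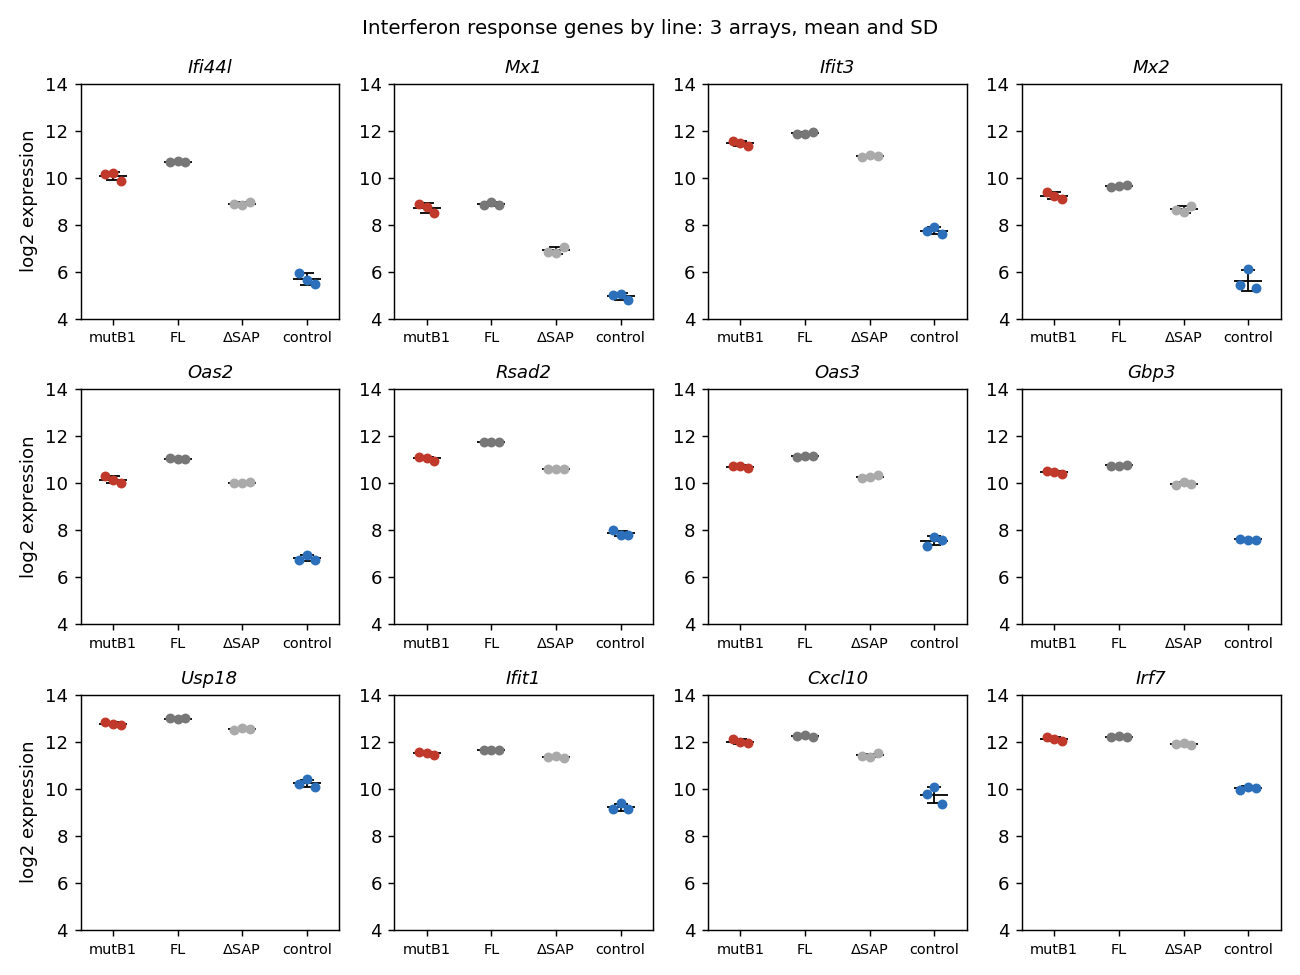
Log2 expression (vertical) of 12 members of the interferon response list in the mutB1, FL, ΔSAP and control lines, with 1 point per array and bars for the mean and SD of 3 arrays. In each panel the control arrays are the lowest, for Ifi44l between 5.48 and 5.96 against 9.87 to 10.20 in mutB1.

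The other construct lines also lay above control for these genes, in comparisons that share the control arrays with that of mutB1. The list's median difference from control was 2.04 in mutB1, 2.38 in FL and 1.77 in ΔSAP. In the direct comparisons, 11 of the 26 members were lower in mutB1 than in FL and 1 was higher, where 10.1% and 10.2% of all probe sets were lower and higher. Against ΔSAP, 13 members were higher in mutB1 and 0 were lower, where 9.04% and 8.07% of all probe sets were higher and lower. Here and below, shares of probe sets cover all those tested, whereas a list holds 1 probe set per gene. Oas2 lay below FL by -0.90 (limma adjusted p = 1.3e-05), and Mx1 lay above ΔSAP by 1.81 (limma adjusted p = 1.1e-06).

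Antigen presentation genes rose with them in part. Of 13 members of the MHC class I presentation list, 10 rose, 4 of them by 2-fold, and the median difference was 0.54. Thus 76.9% of the list passed, against 20.4% of all genes. Tap1, a subunit of the peptide transporter, read 10.47, 10.41 and 10.31 in mutB1 and 8.40, 8.55 and 8.46 in control, without overlap (difference 1.93, limma adjusted p = 2.2e-09). The immunoproteasome subunits Psmb10, Psmb9 and Psmb8 differed by 1.35, 1.30 and 1.25. B2m, the light chain of MHC class I molecules, had a difference of 0.10, and the chaperones Calr and Pdia3 had 0.10 and 0.13, none of which passed. B2m, Calr and Pdia3 were named after their values were seen.

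Epithelial junction and keratin genes fell. In the list of 33 measured members, 17 fell, 12 of them by at least 2-fold, and 0 rose, with a median difference of -0.34 and a range of -2.38 to 0.15. Among all genes 11.4% were lower and 0.849% were lower by 2-fold. Krt7 (probe set 10427052), a keratin of simple glandular epithelium, read 9.02, 8.92 and 8.96 in mutB1 and 11.38, 11.32 and 11.35 in control, a difference of -2.38 ± 0.04 (SE, limma adjusted p = 1e-10). Each mutB1 array was below each control array, and the gap exceeded the spread within each line.

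Cadherin and desmosome genes were among those that fell. Cdh1, the adherens junction protein E-cadherin, read 8.09, 8.04 and 8.10 in mutB1, 10.31, 10.29 and 10.30 in FL, 10.68, 10.71 and 10.67 in ΔSAP and 9.62, 9.62 and 9.72 in control. The mutB1 arrays were the lowest of the 12, with a difference of -1.58 ± 0.04 from control (SE, limma adjusted p = 1.3e-09). Dsp, desmoplakin, which ties desmosomes to keratin, read 6.89, 6.87 and 6.75 in mutB1 and 8.96, 8.98 and 9.04 in control, a fold of 4.45. Pkp2, a desmosomal plaque protein, differed by -1.41. Perp, a membrane protein of desmosomes and a p53 target, lies outside this list and read 6.77, 6.97 and 6.76 in mutB1 and 9.34, 9.25 and 9.41 in control, with no overlap. Dsg2, a desmosomal cadherin, had a difference of only -0.09 from control, which did not pass.

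Tight junction genes, surface markers and epithelial transcription factors were lower as well. Marveld2, the tricellulin of tricellular contacts, had a difference of -2.08 and Cldn4, a claudin, one of -1.74, while Ocln, occludin, had -1.42 and Cldn3 had -1.21. Epcam, an epithelial adhesion molecule, read 6.19, 6.48 and 6.54 in mutB1 and 8.42, 8.42 and 8.48 in control, a difference of -2.03 ± 0.08 (SE, limma adjusted p = 3.7e-08). Grhl2, a transcription factor that drives epithelial genes, differed by -2.07, and Esrp2, an epithelial splicing regulator, by -1.08. The mutB1 means of Marveld2 and Grhl2 were low. Pkp2, Dsg2, Ocln, Cldn3 and Esrp2 were named after their values were seen.

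**Figure D3:**
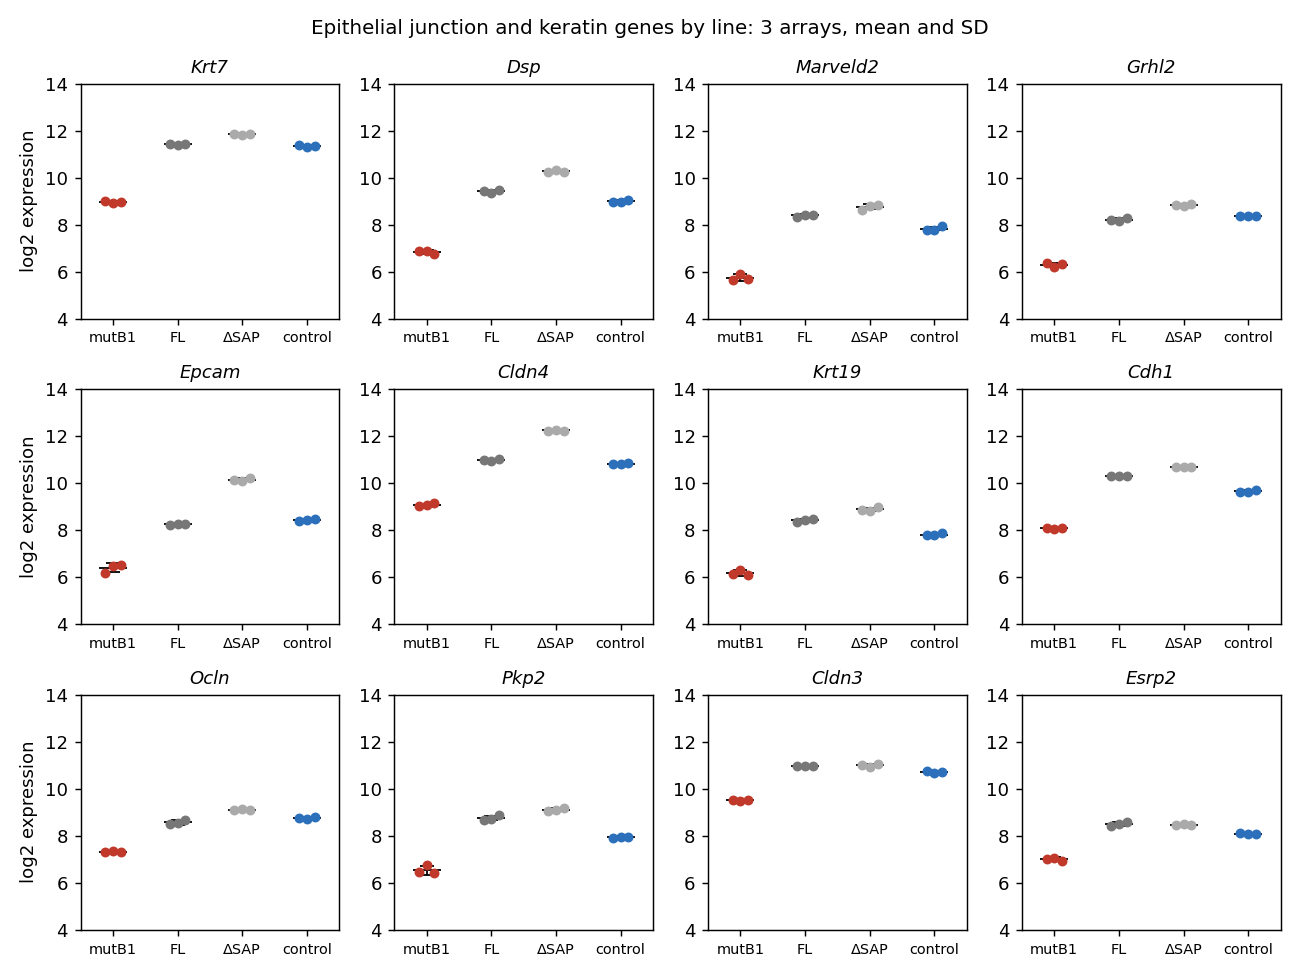
Log2 expression (vertical) of the 12 epithelial junction and keratin genes that fell by at least 2-fold, in the mutB1, FL, ΔSAP and control lines, with 1 point per array and bars for the mean and SD of 3 arrays. The mutB1 arrays are lowest in each panel, for Krt7 between 8.92 and 9.02 against 11.32 to 11.38 in control.

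Keratins of simple epithelium other than Krt7 and Krt19 differed little. Krt8 averaged 13.10 in mutB1 and 13.20 in control, a difference of -0.11 that did not pass (limma adjusted p = 0.044, and 0.0014 with limma-trend, where it passed). Krt18, its filament partner, fell by 0.21 (limma adjusted p = 0.0031), a call lost with only the 6 arrays (0.032), after median centring (0.024) or without control replicate 3 (0.016), mutB1 replicate 2 (0.014) or mutB1 replicate 3 (0.012). Of the 8 mammary epithelial identity markers, which overlap the epithelial list, 5 fell and 4 fell by 2-fold, and their mean log2 level per array ran from 8.77 to 8.81 in mutB1 and from 9.79 to 9.84 in control. Krt8, Krt18, Cdh1 and Cldn4 were well above the low level in mutB1, whereas Cldn7 and the basal keratin Krt14 had low means in mutB1 and in control. In bulk RNA, fewer cells with a transcript and less of it per cell cannot be told apart.

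Mesenchymal genes did not move together. Of 22 members of the mesenchymal transition list, 6 rose (3 with only the 6 arrays) and 2 fell (36.4% passed, against 20.4% of all genes), and the median difference was 0.09. Zeb1 and Zeb2, repressors of Cdh1, rose by 0.55 and 0.35 on the log2 scale. Zeb1 had low means in mutB1 and in control and did not pass with only the 6 arrays (limma adjusted p = 0.017). Against control, Zeb1 also differed by 0.71 in FL and 0.52 in ΔSAP, and Zeb2 by 0.05 and -0.06. In those lines Cdh1 lay above control by 0.65 and 1.03, and a link of Zeb1 or Zeb2 to Cdh1 was not tested. Twist1, another factor of this kind, fell by 0.35 (limma adjusted p = 0.00022). Vim, the intermediate filament protein of mesenchymal cells, and Cdh2, N-cadherin, were named after their values were seen and had differences of -0.00 and -0.02 that did not pass.

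Outside the epithelial list, the 15 steepest falls included Osr1, Rps6ka6 and Tnik. Osr1, a zinc-finger transcription factor of the odd-skipped family, read 6.74, 6.57 and 6.67 in mutB1, 8.79, 8.88 and 8.99 in FL, 6.99, 7.17 and 7.08 in ΔSAP and 9.87, 9.90 and 9.84 in control. The ΔSAP arrays were thus nearly as low as those of mutB1, and the difference of mutB1 from control was -3.21 ± 0.07 (SE, limma adjusted p = 5.6e-10). Rps6ka6, a kinase of the RSK family, differed by -2.64 with a low mutB1 mean, and Tnik, a kinase of the Wnt pathway, by -2.45. Tubb2b, a beta-tubulin, differed by -2.43 and Padi3, a peptidylarginine deiminase, by -2.22. Kdf1, a keratinocyte differentiation factor, differed by -2.16 and Dmp1, a mineralised matrix protein, by -2.24.

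Some of these differences separated mutB1 from each of the other lines. By the rule that mutB1 be called the same way against control, FL and ΔSAP, 32 of 18259 genes were higher and 79 lower. Against control alone, 1.01% of these genes were called higher and 0.849% lower. In each other comparison alone, counted over probe sets, 0.722% were called higher and 1.12% lower than in FL, and 0.622% higher and 1.02% lower than in ΔSAP. Among those lower, Grb7, an adaptor of receptor tyrosine kinases, read 7.47, 7.49 and 7.28 in mutB1, 9.82, 9.86 and 9.86 in FL, 9.95, 9.87 and 9.92 in ΔSAP and 9.56, 9.52 and 9.48 in control. Cblc, a ubiquitin ligase of the Cbl family, read 6.59 in each of the mutB1 arrays and 8.86, 8.84 and 8.85 in control. Rps6ka6, Perp, Krt7, Tmem102, Urah, Padi3, Dsp and Marveld2 belong to the same class, with differences from control of -2.64 to -2.08.

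Srgn, Kank4, Pdgfrb and Gpc4 were among the genes higher than in every other line. Gpc4, a glypican that carries heparan sulfate, read 9.55, 9.61 and 9.58 in mutB1, 6.35, 6.20 and 6.33 in FL, 6.80, 6.82 and 7.12 in ΔSAP and 5.56, 5.58 and 5.50 in control. Pdgfrb, the beta receptor for platelet-derived growth factor, read 10.22, 10.33 and 10.32 in mutB1, 6.32, 6.34 and 6.34 in FL, 6.10, 5.76 and 5.91 in ΔSAP and 6.97, 6.63 and 6.93 in control. For both genes the mutB1 arrays stood apart and the other 9 arrays lay close to or below 7. Against control the differences were 4.03 ± 0.08 for Gpc4 and 3.45 ± 0.10 for Pdgfrb (SE, limma adjusted p = 4.6e-10 and 3.9e-09), and the control mean of Gpc4 was low.

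Of the other genes named from this class, Kank4, of the Kank family, differed from control by 3.52 and Lama4, a laminin chain, by 2.91. Itih2, a hyaluronan-binding heavy chain, differed by 2.70 and Cemip, a protein needed for hyaluronan breakdown, by 1.85. Kank4, Lama4 and Itih2 had low control means. Boc, a co-receptor for Hedgehog ligands, differed by 1.94, Angpt1, a ligand of the receptor Tie2, by 1.67 and Nr5a2, a nuclear receptor, by 2.24.

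**Figure D4:**
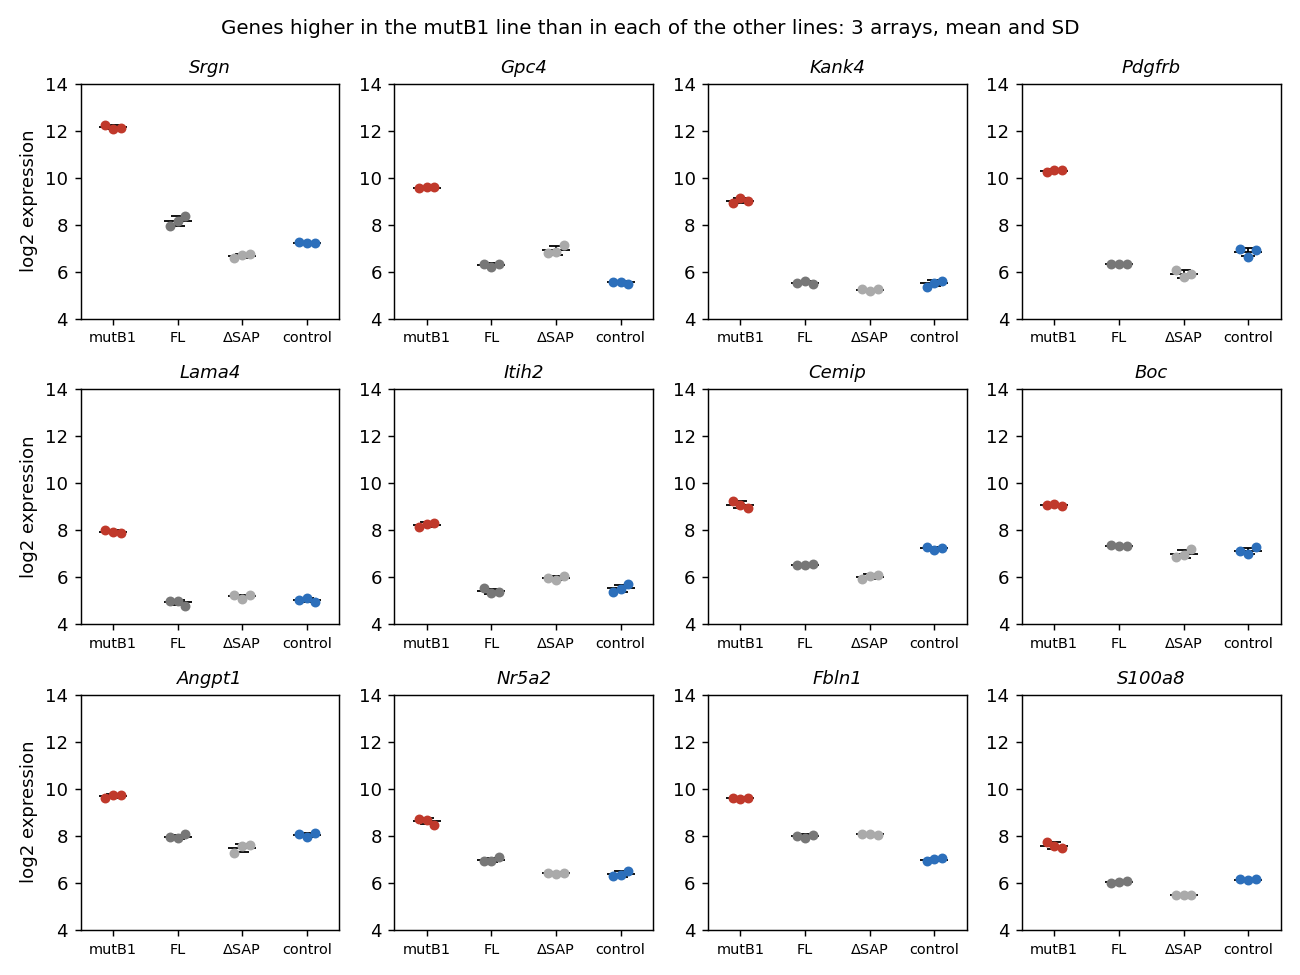
Log2 expression (vertical) in the mutB1, FL, ΔSAP and control lines of the 10 genes highest by the rule for mutB1 above every other line, with Fbln1 and S100a8 added from the marker lists, with 1 point per array and bars for the mean and SD of 3 arrays. The mutB1 arrays lie above all others in each panel, for Srgn between 12.08 and 12.23 against at most 8.38 elsewhere.

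Markers of other cell types were measured beside these genes. In the fibroblast list 3 of 13 members rose, Pdgfrb, Fbln1 by 2.61 and Pi16 by 0.83 on the log2 scale, and 0 fell, so that 23.1% passed, close to the 20.4% of all genes. The control mean of Pi16 was low. Fbln1, a matrix glycoprotein, read 9.62, 9.55 and 9.62 in mutB1 and between 6.94 and 7.04 in control. The mean log2 level over the 14 fibroblast markers with a probe set ran from 6.65 to 6.71 in mutB1 and from 6.10 to 6.20 in control. That gap came mainly from the 3 members that rose, and the median difference of the list was 0.11. The defining collagen markers Col1a1, Col1a2 and Col3a1 read 7.14, 6.72 and 6.97 on average in mutB1 and 7.12, 6.77 and 7.06 in control. Pdgfra averaged 10.87 in mutB1 and 10.76 in control and did not pass, and Dcn, Lum, Thy1, Fap and Postn did not pass and had low means in mutB1 and in control. RMA values have no zero, and the part of fibroblast RNA in the result was not tested.

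Of the leukocyte markers 6.25% passed, of the endothelial markers 16.7% and of the adipocyte markers 0%, against 20.4% of all genes. In the leukocyte list 1 of 16 members rose, S100a8, a calcium-binding protein of myeloid cells, at 7.73, 7.57 and 7.46 in mutB1 and 6.14, 6.11 and 6.14 in control. The control mean of S100a8 was low. Ptprc, the pan-leukocyte marker, averaged 4.70 in mutB1 and 4.65 in control, and the mean log2 level over the list ran from 5.34 to 5.43 in mutB1 and from 5.25 to 5.33 in control. Among 12 endothelial markers, Eng rose by 0.48 and Flt1 fell by 0.55 on the log2 scale, and 0 of 6 adipocyte markers passed.

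**Figure D5:**
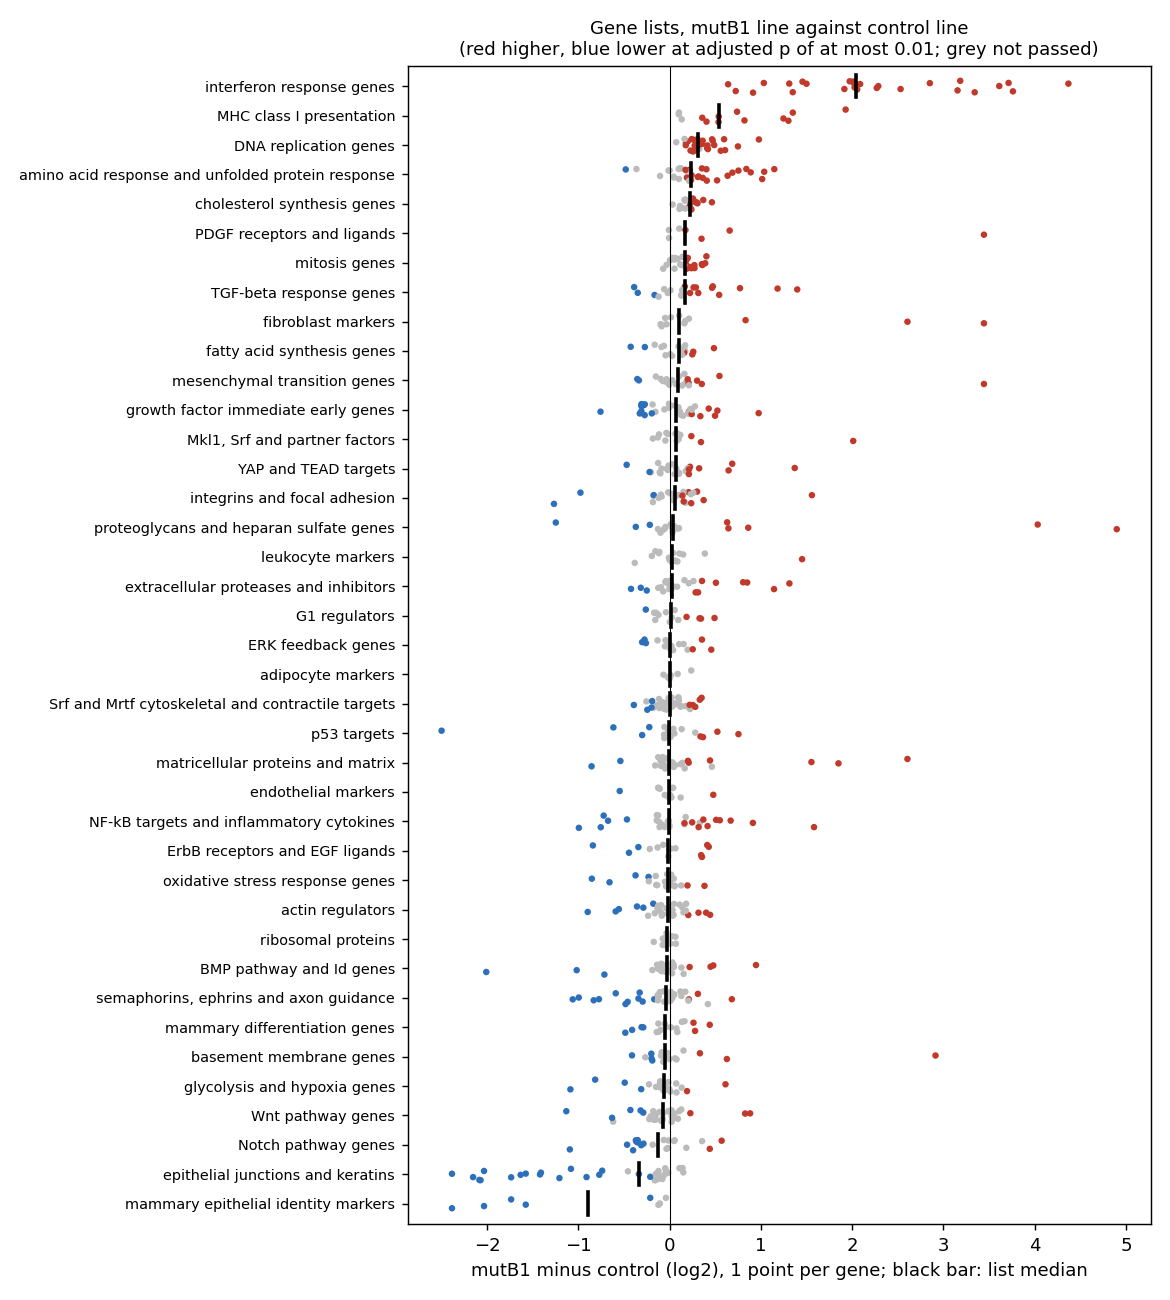
Difference of mutB1 minus control (log2, horizontal) for each member of the 39 gene lists, 1 point per gene, red for higher and blue for lower at an adjusted p of at most 0.01, grey for not passed, and a black bar at the list median. The interferon list has its median at 2.04 and the epithelial junction list at -0.34, while the Srf and Mrtf target list lies at 0.00.

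Cytoskeletal and contractile targets of Srf and Mrtf showed no common direction. Of 39 members, 6 rose and 4 fell, 0 of them by 2-fold, so that 25.6% passed where 20.4% of all genes did, and the median difference was 0.00. Actn1, an actin crosslinker, read between 11.99 and 12.03 in mutB1 and between 12.39 and 12.40 in control, a fall of small size without overlap (difference -0.39, limma adjusted p = 7.2e-06). Csrp1, a LIM protein, rose by 0.35, Cald1, which encodes caldesmon, by 0.33 and Zyx, zyxin of focal adhesions, by 0.28 on the log2 scale. Vcl, whose CArG box is printed above, fell by 0.19. Acta2 and Tagln, actin and transgelin of smooth muscle, had differences of 0.07 and 0.02 that did not pass. Vcl, Acta2 and Tagln were named after their values were seen. With only the mutB1 and control arrays in the fit, 3 members rose and 1 fell.

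Genes of DNA replication rose together by small amounts. Of 29 members, 26 rose and 0 fell, with a median difference of 0.31 and 0 of them past 2-fold. Of this list 89.7% passed, against 20.4% of all genes. The other construct lines also lay above control, with list medians of 0.23 in FL and 0.25 in ΔSAP, in comparisons that share the control arrays. Ccne1, the cyclin that starts S phase with Cdk2, read 10.51, 10.62 and 10.56 in mutB1 and 9.68, 9.46 and 9.60 in control, with no overlap (difference 0.98, limma adjusted p = 6.3e-07). Mcm10, a replication initiation factor, rose by 0.75 and Tyms, thymidylate synthase, by 0.61 on the log2 scale. Among mitosis genes 12 of 24 rose and 0 fell (50% passed), with Aurka, a spindle kinase, highest at 0.40 and a list median of 0.17. With only the 6 arrays in the fit the counts that rose were 16 for replication and 5 for mitosis.

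Amino acid response and unfolded protein response genes rose in part. In this list 20 of 33 members rose and 1 fell, with a median of 0.24 (13 rose with only the 6 arrays). Of the members 63.6% passed, against 20.4% of all genes. The list medians against control were larger in the other construct lines, 0.71 in FL and 0.30 in ΔSAP, in comparisons that share the control arrays. In the direct comparison with FL, 26 members were lower in mutB1 and 1 was higher, where 10.1% and 10.2% of all probe sets were. Mthfd2, a mitochondrial folate enzyme, read 10.35, 10.39 and 10.36 in mutB1, 11.05, 11.01 and 10.99 in FL, 10.28, 10.28 and 10.27 in ΔSAP and 9.17, 9.32 and 9.17 in control. Atf5, a stress-response transcription factor, rose by 1.04 and Chac1, which degrades glutathione, by 0.89. Dnajb9, a chaperone of the endoplasmic reticulum, fell by 0.48, and Hspa5, the main chaperone there, had 0.11 and did not pass. Dnajb9 and Hspa5 were named after their values were seen.

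TGF-beta response genes gave 11 rises and 3 falls among 21 members, with a median of 0.17 (7 and 2 with only the 6 arrays). In this list 66.7% passed, against 20.4% of all genes. Pmepa1, which dampens Smad signalling, read 11.58, 11.58 and 11.60 in mutB1 and 10.10, 10.25 and 10.22 in control. Inhba, the activin A subunit, rose by 1.18 and Smad7, the inhibitory Smad, by 0.77 on the log2 scale. In the BMP list 4 of 23 members rose and 3 fell, so that 30.4% passed where 20.4% of all genes did. Bmp7, a ligand, lay at 6.09, 6.49 and 6.54 in mutB1 and 8.36, 8.37 and 8.40 in control. Id3, a dominant-negative helix-loop-helix factor, rose by 0.95, whereas its relatives Id2 and Id4 fell by 1.02 and 0.71.

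Proteases and adhesion genes held single large changes. Among 26 extracellular proteases and inhibitors, 8 rose and 3 fell (42.3% passed, against 20.4% of all genes). Mmp9, a gelatinase, read 12.10, 12.12 and 12.06 in mutB1, 11.37, 11.32 and 11.37 in FL, 10.62, 10.76 and 10.72 in ΔSAP and 10.79, 10.78 and 10.77 in control. Mmp13, a collagenase, rose by 1.15 on the log2 scale. Fermt1, the epithelial kindlin that activates integrins, read 7.10, 7.09 and 7.08 in mutB1, 9.10, 9.15 and 9.09 in FL, 10.58, 10.75 and 10.71 in ΔSAP and 5.44, 5.57 and 5.58 in control, where its mean was low. It therefore rose against control by 1.56 and lay below FL by -2.02 and below ΔSAP by -3.59 (limma adjusted p = 2.9e-09 and 7.3e-11). Itgb4, the integrin of hemidesmosomes, fell by 1.27 and Cav1, caveolin, by 0.98. Among proteoglycan genes, Sulf2, which removes sulfate from heparan sulfate, rose by 0.86 and Hs3st1, which adds it, fell by 1.25.

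Cytokine genes changed in either direction. Of 30 members of the NF-kB and cytokine list, 10 rose and 5 fell (50% passed, against 20.4% of all genes). The median was -0.00, and 5 rose with only the 6 arrays in the fit. Ccl2, a monocyte chemokine, read 11.67, 11.70 and 11.64 in mutB1 and 10.11, 10.18 and 9.98 in control. Csf3, the granulocyte growth factor, read 7.80, 7.79 and 7.72 in mutB1 and 8.79, 8.69 and 8.81 in control, so that mutB1 was higher for the chemokine and lower for the growth factor with no overlap. Ccl5, a T-cell chemokine, rose by 0.91. Egr1, an immediate early factor, rose by 0.98 and Ier5 fell by 0.76, in a list of 32 immediate early genes of which 7 rose and 10 fell (53.1% passed, with 3 and 5 members when only the 6 arrays were fitted).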

How the data were processed

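The deposited values were log2 expression values per probe set, which the authors made by RMA with the affy package of Bioconductor 2.4, per the series design text; the submitters' processing notes name R 2.10.0. The probe set definition, genome build and scan batches were not given in the sources used here, and RMA values carry no detection call. Platform annotation gave 21640 probe sets 1 symbol, 1321 several and 11799 none. For 21553 of those with 1 symbol, the symbol was taken from RefSeq (GRCm38.p6) by gene identifier, whether or not it differed. A gene was represented by its probe set with the highest mean. Lines were compared with limma 3.58.1 in R 4.3.3 (lmFit, eBayes) in a fit of all 12 arrays with 4 line means, Benjamini-Hochberg adjusted over all 34760 probe sets, after a check on simulated data. List members rose or fell at an adjusted p of at most 0.01 with no minimum fold. Genes were named by rule: the 15 highest rises and falls, up to 4 members per list, the 10 genes furthest above or below all lines, and Mrtfa, Mrtfb, Srf, Tnc and cell type markers. Other names are said to be chosen later. The members and lists were chosen with earlier results of these data known. Alternatives covered the arrays fitted, the minimum level, scaling, variance prior, array weights, fold rule, pairing and left-out arrays. The number of arrays limits the precision.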

Additional observations from a re-analysis of the deposited data

How the results depend on the processing

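The 419 called probe sets (249 higher, 170 lower) became 4392 with no minimum fold (2009 higher, 2383 lower) and 220 under limma's treat against 2-fold (147 higher, 73 lower), where the stricter null itself lowers the count. Leaving out each of the 12 arrays in turn gave 403 to 454 called, 241 to 281 higher and 162 to 174 lower. The fit with the replicate number as a block gave 423 called, 251 higher and 172 lower. Same-numbered mutB1 and control arrays had deviations that correlated at 0.03, -0.03 and 0.04, so the numbers were not taken to pair the samples. With only the 6 arrays of the comparison, 416 were called, and small changes were lost with fewer samples: in the cholesterol list 1 member rose in place of 11. Among genes named by rule, no difference that passed the threshold changed direction under the alternatives run, and the interferon count was 26 under each and the epithelial falls 16 to 18. Signals near the low end of the scale limit what can be read from genes with low means.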

Other observations

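Cholesterol synthesis genes rose in mutB1 against control in 11 of 20 members and fell in 0 (55.0% passed, against 20.4% of all genes), with a median of 0.23, led by Tm7sf2, a sterol reductase, at 0.46 (limma adjusted p = 2.3e-05), and 1 rose with only the 6 arrays in the fit. In the direct comparison with FL all 20 members were higher in mutB1, by a median of 0.60, where 10.2% of all probe sets were higher. The list medians against control were -0.37 in FL and 0.18 in ΔSAP, in comparisons that share the control arrays. Among 20 Notch pathway genes 2 rose and 9 fell, which is 55.0%, and Dll4, a ligand, read 7.69, 7.75 and 7.43 in mutB1 and 8.76, 8.65 and 8.74 in control. Its pathway target Hes1 rose by 0.57 on the log2 scale.

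Among glycolysis and hypoxia genes 2 of 25 rose (1 with only the 6 arrays) and 4 fell, so that 24.0% passed, near the 20.4% of all genes. Car9, a carbonic anhydrase of the cell surface, read 6.30, 6.18 and 6.13 in mutB1 and 7.26, 7.37 and 7.24 in control, with a low mutB1 mean. Lbp, a carrier of bacterial lipopolysaccharide, averaged 9.84 in mutB1, 6.75 in FL, 6.42 in ΔSAP and 10.60 in control, so that mutB1 and control were high and the other lines low (difference from control -0.75, limma adjusted p = 0.0015). Erbb3, a neuregulin receptor, averaged 6.06 in mutB1, 7.34 in FL, 8.89 in ΔSAP and 6.90 in control, with a low mutB1 mean. None of 16 ribosomal protein genes passed the adjusted p.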
